A study of Mus musculus with 11 samples.

Results

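The miR-99/100 and miR-125 families were followed in macrophages sorted from the mouse heart before and after cryoinjury. The 5 members are mmu-miR-99a-5p, mmu-miR-99b-5p, mmu-miR-100-5p, mmu-miR-125a-5p and mmu-miR-125b-5p, written from here without the mouse prefix. They were found by these exact names among the 1247 mouse miRNAs of the array, without regard to their signals. All 5 were among the 369 miRNAs tested, for which detection on 2 or more of the 11 arrays was asked. miR-99a-5p, miR-99b-5p, miR-125a-5p and miR-125b-5p were detected on 11 of 11 arrays and miR-100-5p on 10 of 11.

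GFP-positive cells were isolated from hearts of Cx3cr1GFP/+ mice aged 2-3 months, and total RNA was hybridised to 1-colour miRNA arrays. In these knock-in mice 1 copy of Cx3cr1, a chemokine receptor gene of monocytes and macrophages, carries GFP; animals of every group have this genotype, controls included, and no group with an intact pair of Cx3cr1 alleles was analysed here. The control group was Ly6clow/CX3CR1high cells from uninfarcted hearts of animals that had no surgery, here called day 0 (2 arrays). Cryoinjury, a freezing lesion of the ventricle used as a model of infarction, was followed by collection of Ly6chigh/CX3CR1low cells at day 3 (3 arrays) and of Ly6clow/CX3CR1high cells at day 7 (3 arrays) and day 30 (3 arrays). Ly6c marks inflammatory monocytes and the macrophages newly derived from them. The Ly6chigh population was taken at day 3 alone and the Ly6clow population at the other times, so a comparison with day 3 changes both the time after injury and the population, and these cannot be told apart. No sham-operated group was analysed, so injury and surgery cannot be told apart either. The labels describe the samples as separate biological replicates without tying them to named animals.

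As background, miRNAs are short RNAs that load into Argonaute proteins and repress mRNAs mainly through bases 2 to 8, the seed. The miR-99/100 family is known for repressing mTOR signalling genes, among them Mtor itself and Igf1r. miR-125 is the vertebrate counterpart of Caenorhabditis elegans lin-4, which controls developmental timing, and in blood cells its members are known to act on stem cell number, on apoptosis genes such as Bak1 and on regulators of inflammatory signalling in macrophages such as Tnfaip3 and Irf4. Genes of the families sit beside each other in the genome, in clusters that also hold a let-7 gene.

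The 5 mature sequences, from RefSeq (assembly GRCm38.p6, 5 of 5 matched by name), are shown because they define the families and show how close the paralogs are. Capitals mark the seed, bases 2 to 8 counted from the 5′ end.
miR-99a-5p: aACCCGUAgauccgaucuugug
miR-99b-5p: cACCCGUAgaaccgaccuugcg
miR-100-5p: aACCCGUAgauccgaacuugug
miR-125a-5p: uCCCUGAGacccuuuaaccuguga
miR-125b-5p: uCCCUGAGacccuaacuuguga

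The first 3 share the seed ACCCGUA and the last 2 the seed CCCUGAG. miR-99a-5p and miR-100-5p differ at 1 base (U16A, miR-99a-5p first, counted from its 5′ end). miR-99a-5p and miR-99b-5p differ at 4 bases (A1C, U11A, U16C and U21C). miR-125a-5p has 24 bases and miR-125b-5p 22, with the first 13 and the last 5 in common. The array's probe sequences were not used here, and how far a probe for miR-99a-5p also binds miR-100-5p was not tested.

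The genes lie in 3 clusters, all on the plus strand of GRCm38.p6. miR-99b-5p (chr17:17830194-17830215) and miR-125a-5p (chr17:17830817-17830840) come from a compact cluster whose hairpins, with that of let-7e between them, span 692 bases inside the span of the protein-coding gene Spaca6. miR-99a-5p (chr16:77598940-77598961) lies with let-7c and the second copy of miR-125b (chr16:77646279-77646300) in a cluster of 47408 bases. miR-100-5p (chr9:41531437-41531458) lies with let-7a and the first copy of miR-125b (chr9:41581940-41581961) in a cluster of 50578 bases within the span of the long non-coding gene Mir100hg. Both miR-125b genes give the same mature RNA, so the array cannot tell their products apart.

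Array brightness varied 41.4-fold as the 75th percentile of the total gene signal, taken over the 126 miRNAs that every array detected, and 2.16-fold in the 4 dmr control rows. The 2 day 0 arrays (55.7 and 163 scanner units) and the 3 day 7 arrays (114 to 323) were all dimmer than the 6 arrays of days 3 and 30 (805 to 2304). Each array detected 151 to 340 miRNAs. Each array was therefore divided by its own 75th percentile, and levels below are log2 of this scaled signal, so that 0 is the 75th percentile of the array and values raised to the floor stand at -8.53. The arrays of day 30 replicates 2 and 3 agreed within the scanner error and were counted as 1 sample, which leaves 2 samples at day 0, 3 at day 3, 3 at day 7 and 2 at day 30. The 2 day 0 arrays differed most of all replicate pairs, with a median absolute log2 difference of 1.06 once centred. Every change from day 0 rests on these 2. Differences were tested with limma over all 369 miRNAs, with Benjamini-Hochberg adjusted p-values, and a call is an adjusted p under 0.05.

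**Figure D1:**
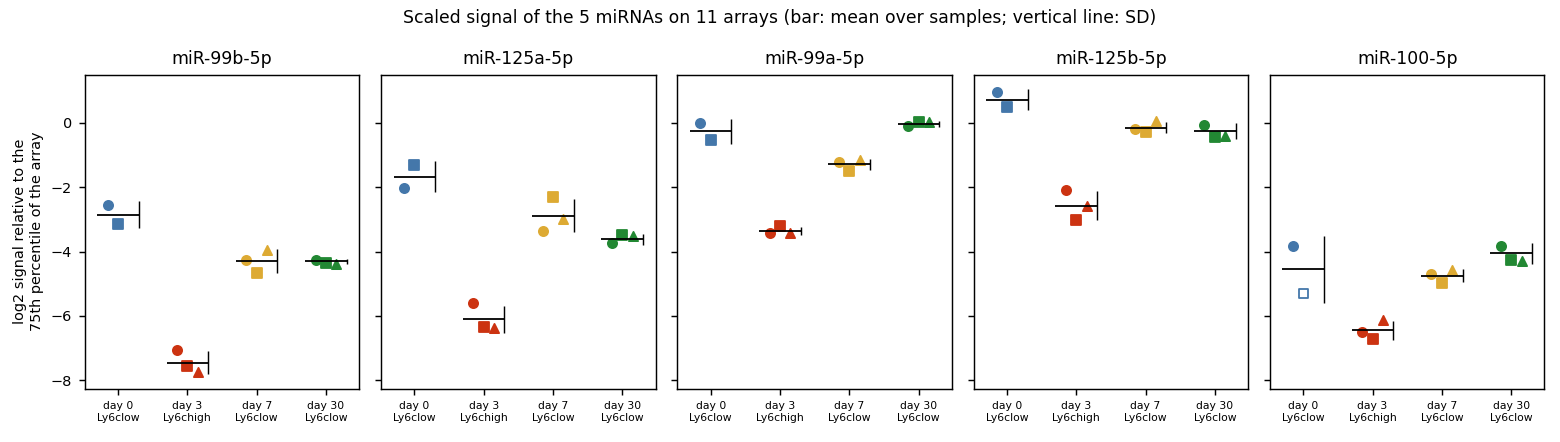
Log2 scaled signal (vertical axis) of each member on the 11 arrays, grouped by day (horizontal axis); circles, squares and triangles are replicates 1, 2 and 3, an open symbol is a signal without detection, horizontal bars are means over samples and vertical lines are SDs. All 5 members had their lowest group mean at day 3, from -2.57 for miR-125b-5p to -7.45 for miR-99b-5p.

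All 5 members were lowest in Ly6chigh cells at day 3, in every array of that group, and all 5 were higher again at days 7 and 30. Their summed signal made up 2.14% and 0.795% of an array's total signal at day 0. It made up 0.17%, 0.117% and 0.162% at day 3. The shares were 0.672%, 0.736% and 1.01% at day 7, and 1.31%, 1.2% and 1.29% at day 30. The highest day 3 share was thus below the lowest share of any Ly6clow array.

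The compact cluster is described first. At day 3 against day 0 its 2 members had the lowest changes of the 5, but with array brightness as a covariate miR-125a-5p had the smallest fall of the 5 (-2.70). miR-99b-5p, whose seed is that of miR-100, stood at -2.56 and -3.15 in the 2 day 0 arrays. At day 3 it stood at -7.04, -7.54 and -7.75. It was -4.25, -4.68 and -3.96 at day 7, and -4.25, -4.34 and -4.38 at day 30. The 3 day 3 arrays were the lowest, the 2 day 0 arrays the highest, and days 7 and 30 lay between them with overlapping values. Group means were -2.86 ± 0.42 (SD, n = 2) at day 0, -7.45 ± 0.37 (n = 3) at day 3, -4.30 ± 0.36 (n = 3) at day 7 and -4.31 ± 0.08 (n = 2) at day 30. Day 3 was lower than day 0 by limma, with a change of -4.59 (SE 0.44, adjusted p 4.27e-05), a 24.1-fold difference. This was the lowest change of the 369, and it ranged from -4.89 to -4.29 with 1 replicate left out. From day 3 to day 7 it rose by 3.15 (SE 0.39, adjusted p 0.000517), and day 30 was 3.14 above day 3 (SE 0.44, adjusted p 0.00031). Days 7 and 30 differed by -0.01 (95% interval -0.95 to 0.93, adjusted p 0.988). Its signal at day 3 was dim: 7.29, 4.32 and 7.44 scanner units, with a scanner error of 20.5% to 31.5% of the signal.

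miR-125a-5p, the other member of that cluster and a miR-125 by its seed, stood at -2.02 and -1.32 at day 0. It was -5.61, -6.34 and -6.38 at day 3. At day 7 it was -3.35, -2.32 and -2.98, and at day 30 it was -3.74, -3.48 and -3.51. No value of 1 group overlapped another, and the order of the group means was day 0, day 7, day 30 and day 3. The means were -1.67 ± 0.49 (n = 2), -2.88 ± 0.52 (n = 3) at day 7, -3.62 ± 0.17 (n = 2) at day 30 and -6.11 ± 0.43 (n = 3) at day 3. By limma the change from day 0 to day 3 was -4.44 (SE 0.47, adjusted p 7.44e-05), or 21.7-fold, ranked 3 from the lowest of 369. Day 7 was 3.23 above day 3 (SE 0.42, adjusted p 0.000517), ranked 3 from the highest. The neighbouring groups day 7 and day 30 did not differ beyond their spread by limma, at -0.73 (95% interval -1.75 to 0.28, adjusted p 0.213), nor did day 7 and day 0, at -1.21 (adjusted p 0.121).

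Among the paralogs, miR-99a-5p stood at 0.01 and -0.54 at day 0. It was -3.43, -3.21 and -3.43 at day 3. At day 7 it was -1.21, -1.49 and -1.17, and at day 30 it was -0.11, 0.02 and 0.02. Day 30 overlapped day 0, day 7 lay below both, and day 3 was lowest. The means were -0.27 ± 0.38 (n = 2), -3.35 ± 0.13 (n = 3), -1.29 ± 0.18 (n = 3) and -0.04 ± 0.09 (n = 2) in order of day. Day 3 was below day 0 by limma, at -3.09 (SE 0.40, adjusted p 0.000273), 8.5-fold. Day 30 exceeded day 3 by 3.31 (SE 0.40, adjusted p 0.000157), or 9.93-fold, the fifth highest change of 369. It also exceeded day 7, by 1.25 (SE 0.40, adjusted p 0.0215), and no other member was called between these days. Day 30 and day 0 were not called different, at 0.22 (95% interval -0.72 to 1.17).

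miR-125b-5p, made from the chromosome 16 and chromosome 9 clusters together, stood at 0.96 and 0.49 at day 0. At day 3 it was -2.10, -3.03 and -2.58. It was -0.21, -0.28 and 0.04 at day 7, and -0.08, -0.45 and -0.40 at day 30. Day 3 was below all other arrays, day 0 above them, and days 7 and 30 overlapped. The means were 0.72 ± 0.33 (n = 2), -2.57 ± 0.46 (n = 3), -0.15 ± 0.17 (n = 3) and -0.25 ± 0.25 (n = 2) in order of day. Day 3 differed from day 0 by -3.29 by limma (SE 0.43, adjusted p 0.000273), 9.81-fold. The rise to day 7 was 2.42 (SE 0.39, adjusted p 0.00124). Days 7 and 30 differed by -0.11 (95% interval -1.04 to 0.83), and day 30 lay below day 0 at -0.98 without passing the test (adjusted p 0.0909), which it passed with the slide as a block (adjusted p 0.0481).

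miR-100-5p, the last member, was -3.81 at day 0 replicate 1 and not detected at replicate 2, where its signal gave -5.30. It stood at -6.49, -6.72 and -6.13 at day 3. The values were -4.69, -4.97 and -4.58 at day 7, and -3.83, -4.27 and -4.29 at day 30. Day 3 was below all other arrays, and the undetected day 0 array lay below all of days 7 and 30. The means were -4.55 ± 1.05 (n = 2), -6.45 ± 0.29 (n = 3), -4.75 ± 0.20 (n = 3) and -4.06 ± 0.32 (n = 2) in order of day. By limma the day 3 change from day 0 was -1.89 (SE 0.49, adjusted p 0.00809), 3.71-fold, and 102nd from the lowest of 369. Since 1 of the 2 day 0 values was not above background, the day 0 mean, and each change from it, is uncertain for miR-100-5p. Against day 3, where both sides were detected, day 7 was 1.70 higher (SE 0.44, adjusted p 0.00976) and day 30 was 2.39 higher (SE 0.49, adjusted p 0.00374).

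Levels were set in order of rank within each array only to describe them. Of 1247 miRNAs, miR-125b-5p ranked 20 to 28 at day 0 and 65 to 81 at day 3, and miR-99a-5p 32 to 43 and 87 to 95. miR-125a-5p ranked 60 in both day 0 arrays and 193 to 230 at day 3. miR-99b-5p moved from rank 76 to 113 at day 0 to rank 264 to 286 at day 3. For miR-100-5p the ranks overlapped, at 101 to 215 at day 0, the 215 without detection, and 206 to 251 at day 3. At day 30 the ranks were 34 to 39 for miR-125b-5p, 32 to 35 for miR-99a-5p and 88 to 96 for miR-125a-5p. They were 115 to 119 for miR-99b-5p and 101 to 117 for miR-100-5p.

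The members' counts are read against all miRNAs. Against day 0, 5 of 5 members were called lower, where 39% of the 369 tested were called lower and 16.3% higher. This split of all miRNAs turned with the scaling, to 0.271% lower and 67.8% higher without scaling, 1.08% and 51.2% when the percentile took in every miRNA, 0.813% and 63.7% when the dmr controls set the scale, and 19.2% and 30.1% after quantile normalization. Of the members, 0, 1, 2 and 4 were called lower under these 4 settings. All 5 had no overlap between the groups, as had 44.2% of those tested in that direction. The median change of the members was -3.29, beside -0.77 over the miRNAs detected on all arrays. Against the mean of the 3 Ly6clow groups, day 3 was lower for 5 of 5 members, with 21.4% of those tested called lower. In this comparison miR-99b-5p (-3.63, limma adjusted p 2.72e-05) ranked second from the lowest. miR-125a-5p (-3.39, adjusted p 5.93e-05) ranked 4th, miR-99a-5p (-2.82, adjusted p 5.93e-05) 6th and miR-125b-5p (-2.68, adjusted p 0.000148) 7th. miR-100-5p ranked 16th (-2.0, limma adjusted p 0.00174). The median change over the miRNAs detected on all arrays was -0.31 there.

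**Figure D2:**
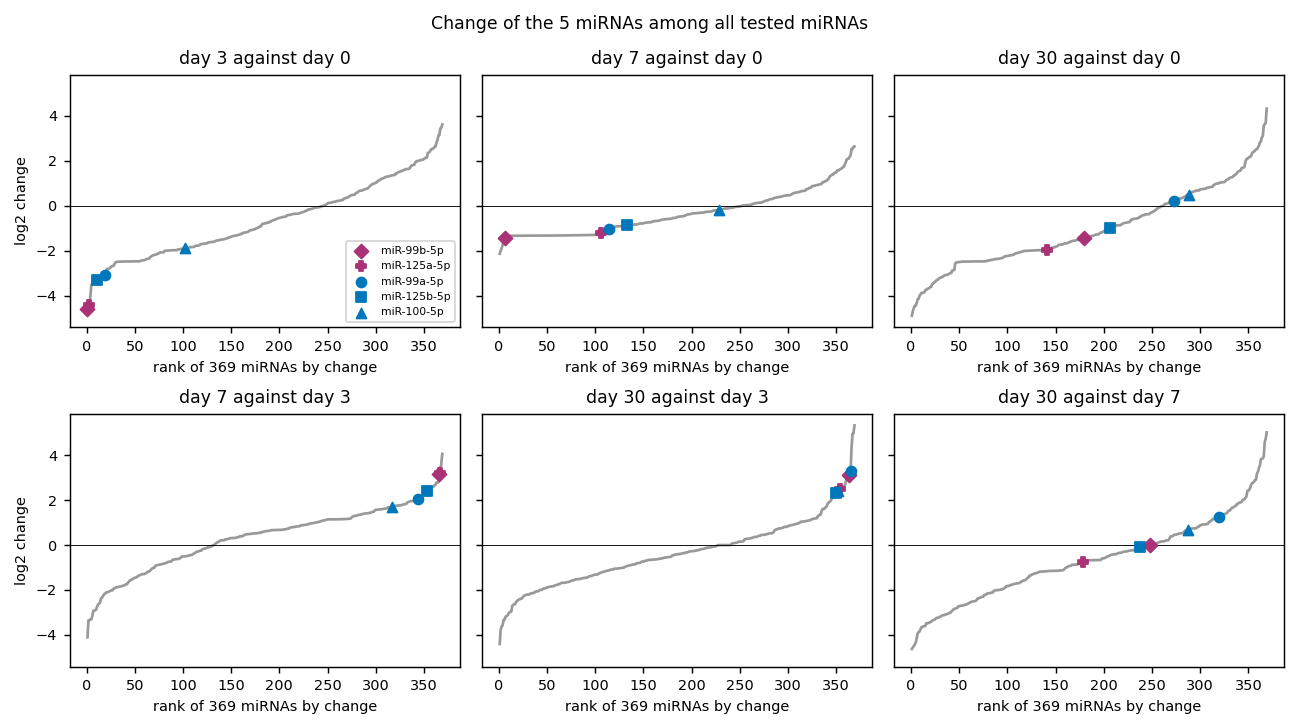
Log2 change (vertical axis) of the tested miRNAs in order of rank (horizontal axis) in 6 comparisons, with the 5 members marked. At day 3 against day 0 the members lie between -4.59 (rank 1 from the lowest) and -1.89 (rank 102), and at day 30 against day 3 between 2.32 and 3.31 (ranks 350 to 365).

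The return was called as well. From day 3 to day 7, 5 of 5 members rose, with 21.1% of the 369 called higher and a median change of 0.63 over the miRNAs detected on all arrays. At day 30 against day 3, 5 of 5 were higher by 2.32 to 3.31, with 9.76% called higher, while the median change over the miRNAs detected on all arrays was -0.49. In that comparison the groups did not overlap for any member, as for 27.9% of those tested in the same direction. The comparisons with day 3 share its samples and are not independent of each other.

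At day 30 against day 0 the members called lower were 2 of 5, near the share of all miRNAs. miR-99b-5p was below day 0 by limma at -1.45 (SE 0.48, adjusted p 0.0206) and miR-125a-5p at -1.95 (SE 0.52, adjusted p 0.0077), while miR-99a-5p, miR-100-5p (0.50, adjusted p 0.43) and miR-125b-5p were not called. These 2 of 5 stand beside 47.4% of the 369 called lower and a median of -1.06 over the miRNAs detected on all arrays, so that neither change was large for this comparison. None of the 5 was called here without day 30 replicate 1, with median scaling or with the brightness covariate, and on unscaled signals all 5 were higher at day 30, with 74.8% of the 369 called higher. Of the 369, 35% were called lower at day 30 against day 0 with median scaling, and 0% were called in either direction with the brightness covariate. At day 7 against day 0 none of the 5 was called by limma, with 3.79% of the 369 called and 0.542% called lower. At an unadjusted p under 0.05 in limma 3 of 5 were lower, with 27.9% of the 369. 4 of the 5 had every day 7 value below every day 0 value, as had 8.67% of those tested, and the largest change was that of miR-99b-5p at -1.44 (95% interval -2.38 to -0.50, adjusted p 0.0983). Day 30 against day 7 gave 1 of 5 called higher, miR-99a-5p, with 13.6% of the 369 called higher, and none without day 30 replicate 1, without day 7 replicate 3 or with the brightness covariate, where its change was 0.68. Across the 4 groups the limma F test called 5 of 5 members, with 78.9% of the 369 called.

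Brightness moved with the groups, with days 0 and 7 dim and days 3 and 30 bright, and the changes between dim and bright groups rested on the scaling. On unscaled signals the day 3 change from day 0 was 0.41 for miR-99a-5p, 0.20 for miR-125b-5p and 1.33 for miR-100-5p, the opposite direction. It was -1.09 for miR-99b-5p and -0.95 for miR-125a-5p, the same direction, and none of the 5 was called. The rise from day 3 to day 7 was likewise called for none without scaling, with 0.542% of the 369 called higher and 55.8% lower. With the log2 75th percentile of each array as a covariate in limma, the day 3 fall from day 0 stayed called for all 5, at -3.71 for miR-99a-5p (adjusted p 0.00954), -5.43 for miR-99b-5p (adjusted p 0.00725), -3.95 for miR-100-5p (adjusted p 0.00954), -2.70 for miR-125a-5p (adjusted p 0.0309) and -4.08 for miR-125b-5p (adjusted p 0.00954). Beside these 5, 4.07% of the 369 were called lower and 14.4% higher at day 3 against day 0 with that covariate. The day 0 and day 3 arrays did not overlap in brightness, and the covariate is also the divisor of the scaling. It therefore cannot separate brightness from group in this comparison. Within slide 1 the fall of miR-99b-5p was -4.84 and within slide 2 it was -4.39. For miR-125a-5p the values were -3.98 and -5.02.

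Day 3 and day 30 can be compared on unscaled signals of arrays with a like 75th percentile. That percentile is also the divisor of the scaling, so this is no independent check of the scaled changes. Day 3 replicate 3 had a 75th percentile of 1607 scanner units, between those of day 30 replicate 2 (1453) and replicate 3 (1754). The geometric means of their dmr controls were less alike, at 3662 for the day 3 array and 2760 and 2461 for the day 30 arrays. miR-99a-5p gave 149 scanner units on the day 3 array and 1474 and 1784 on the day 30 arrays, 9.86-fold and 11.9-fold more. miR-99b-5p gave 7.44 against 71.7 and 84.5, 9.63-fold and 11.4-fold more. For miR-125a-5p the signals were 19.3 against 130 and 154, 6.73-fold and 7.99-fold. For miR-125b-5p they were 268 against 1062 and 1326, 3.96-fold and 4.95-fold. For miR-100-5p they were 22.9 against 75.4 and 89.5, 3.30-fold and 3.92-fold. Each member was brighter on both day 30 arrays, which count as 1 sample, and this matched set was chosen after the brightness had been seen. In the 26 alternatives of scaling, filter, model and left-out replicates, no member changed sign at day 30 against day 3 and 3 to 5 of the 5 stayed called higher. The 3 came without day 30 replicate 1 and with the highest floor. No member changed sign at day 3 against the Ly6clow mean either, where 2 to 5 stayed called lower, with 2 on unscaled signals. At these lowest counts, 6.23% of the 369 were called higher with the highest floor and 6.5% lower on unscaled signals. Without day 30 replicate 1 that day held 1 sample, so no share is given there.

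**Figure D3:**
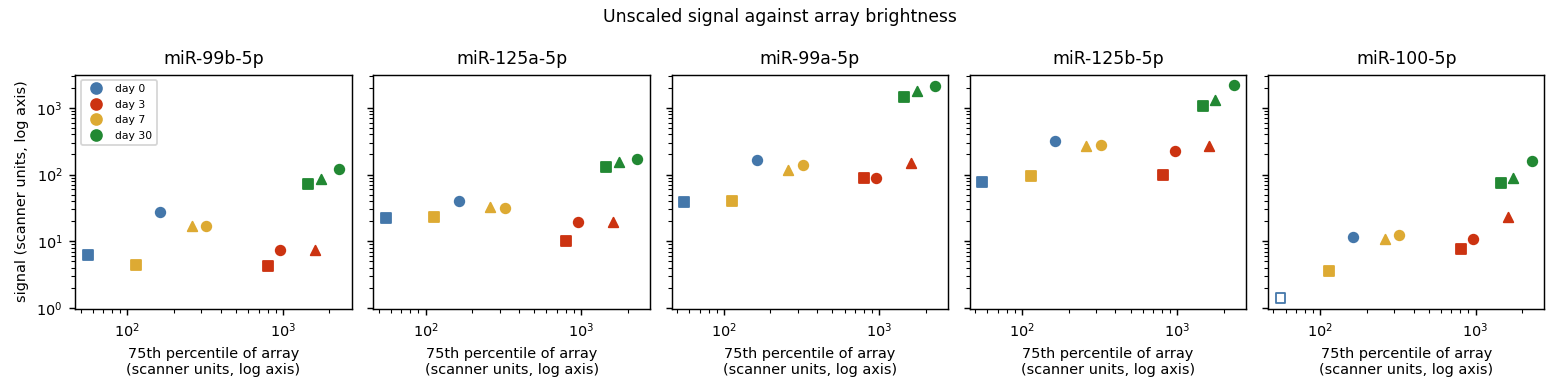
Unscaled signal of each member (vertical axis, scanner units, log scale) against the 75th percentile of its array (horizontal axis, scanner units, log scale), with 1 point per array coloured by group. At day 3, arrays of 805 to 1607 scanner units gave miR-99b-5p signals of 4.32 to 7.44, below those of day 30 arrays of like brightness (71.7 and 84.5).

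The cluster of miR-99b and miR-125a was then set against its paralogs by the log2 ratio of both signals on the same array, which does not depend on the array's scale. Only the change of a ratio between groups is read, since probes differ in brightness. The ratio of miR-99b-5p to miR-99a-5p was -2.57 and -2.62 at day 0, -3.62, -4.33 and -4.33 at day 3, -3.04, -3.19 and -2.79 at day 7, and -4.15, -4.36 and -4.40 at day 30. Days 3 and 30 lay below days 0 and 7 on every array. In fits relative to 1 paralog, chosen after the data had been seen, limma gave miR-99b-5p a change relative to miR-99a-5p of -1.50 at day 3 against day 0 (SE 0.40, adjusted p 0.00782; 59.2% of the other 368 miRNAs called). At day 30 against day 0 the change was -1.67 (SE 0.44, adjusted p 0.018; 51.4% called). Day 3 and day 30 differed by -0.17 (95% interval -1.06 to 0.72, adjusted p 0.679; 93.5% called). The group means of the ratio, -2.59, -3.01, -4.09 and -4.26 at days 0, 7, 3 and 30, fell in the order of the groups' brightness. With brightness as a covariate the change at day 3 against day 0 was -1.72 and at day 30 -1.94, and neither was called (adjusted p 0.0625 and 0.296).

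The ratio of miR-99b-5p to miR-100-5p was 1.25 and 2.14 at day 0, the latter against an undetected miR-100-5p. It was -0.55, -0.83 and -1.62 at day 3, 0.44, 0.29 and 0.62 at day 7, and -0.42, -0.07 and -0.08 at day 30. Every day 3 ratio was below every Ly6clow ratio. Over 3 day 3 and 7 Ly6clow samples the means differed by -1.61, with a two-sided exact permutation p of 0.0167, the smallest that 120 arrangements allow, and 0.1 after adjustment over the 6 ratios tested. Relative to miR-100-5p in limma the change was -1.63 (SE 0.50, adjusted p 0.0136; 49.7% of 368 called). With the brightness covariate it was -1.05 and was not called (adjusted p 0.0801).

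Between the miR-125 paralogs, the ratio of miR-125a-5p to miR-125b-5p was -2.98 and -1.81 at day 0 and -3.51, -3.31 and -3.80 at day 3. It was -3.14, -2.03 and -3.02 at day 7 and -3.66, -3.03 and -3.10 at day 30. The day 3 ratios overlapped those of day 30 and spread less than those of day 0. Day 3 and the Ly6clow samples differed by -0.72 (exact permutation p 0.05, adjusted 0.15). None of the 7 limma comparisons relative to miR-125b-5p called miR-125a-5p, while 66.3% of the 368 other miRNAs were called for day 3 over day 0, 7.07% for day 7 over day 0 and 22.6% for day 30 over day 0. The shares were 64.1% for day 7 over day 3, 83.2% for day 30 over day 3, 38% for day 30 over day 7 and 88.3% for day 3 over the Ly6clow mean. The interval at day 3 against day 0 ran from -2.45 to 0.16 (adjusted p 0.105), and with the slide as a block its adjusted p was 0.0302. With the brightness covariate the change turned to 1.38, and at day 3 against the Ly6clow mean from -0.71 to 0.50, neither of them called (adjusted p 0.21 and 0.394).

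The other 3 ratios changed less or the other way at day 3. Within the compact cluster, miR-99b-5p over miR-125a-5p differed by -0.20 (exact permutation p 0.667). miR-99a-5p over miR-125b-5p, a ratio within the chromosome 16 cluster apart from the second source of miR-125b, differed by -0.07 (exact permutation p 0.85). miR-100-5p over miR-125b-5p differed by 0.69 (exact permutation p 0.0833). The remaining ratio, miR-99b-5p over miR-99a-5p, differed by -0.85 (exact permutation p 0.117). None of the 6 passed after adjustment, where the values ran from 0.1 to 0.85. A single ratio at the smallest possible p, 0.0167 in this permutation test, becomes 0.1 over 6 ratios and cannot pass alone. Not passing therefore does not show that a ratio was unchanged.

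**Figure D4:**
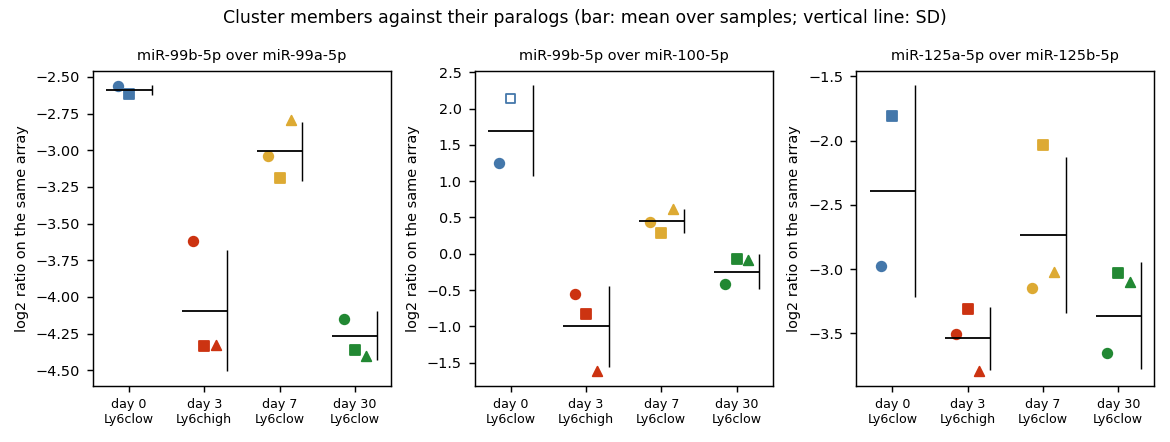
Log2 ratio of members measured on the same array (vertical axis), by day (horizontal axis), with 1 symbol per array, bars at means over samples and vertical lines for SDs. The ratio of miR-99b-5p to miR-100-5p lies between -1.62 and -0.55 at day 3 and between -0.42 and 2.14 in the Ly6clow arrays.

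Differences among all 4 groups were examined by an exact permutation of the F statistic over 25200 arrangements, a test chosen after the ratios had been seen. The adjusted p over 6 ratios was 0.0019 for miR-99b-5p over miR-100-5p, 0.0127 for miR-99b-5p over miR-99a-5p and 0.0127 for miR-100-5p over miR-125b-5p. By the same exact test it was 0.0733 for miR-99a-5p over miR-125b-5p, 0.169 for miR-125a-5p over miR-125b-5p and 0.619 for miR-99b-5p over miR-125a-5p. The ratio of the 2 members of the compact cluster thus had the largest p of the 6. It also spread within groups, with SDs of 0.91 at day 0 and 0.82 at day 7. The large p therefore does not show that the 2 members moved together.

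Of 16 listed cluster neighbours, opposite strands and other miRNAs with the miR-125 seed, 15 were on the array, 5 were tested and 8 were never detected. miR-351-5p, miR-6367 and miR-6394, which share the seed CCCUGAG, were among the 8. let-7e-5p, whose hairpin lies between those of miR-99b and miR-125a, had group means of -0.71 ± 0.31 (n = 2), -3.83 ± 0.29 (n = 3), -2.15 ± 0.37 (n = 3) and -1.35 ± 0.16 (n = 2) in order of day. By limma its change from day 0 to day 3 was -3.12 (adjusted p 0.000281), and it rose by 1.68 to day 7 (adjusted p 0.00535). With the brightness covariate both calls were lost, at -1.72 (adjusted p 0.072) and 0.75 (adjusted p 0.271). let-7c-5p comes from the miR-99a cluster and also from a gene on chromosome 15. It changed by -1.19 at day 3 against day 0 (limma adjusted p 0.0311) and by 0.05 with the brightness covariate (adjusted p 0.973). let-7a-5p, which has genes at other loci besides the miR-100 cluster, changed by 0.37 (limma adjusted p 0.456). let-7 members differ by few bases, and how far their probes bind each other's targets was not tested.

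The opposite strand of the miR-125a hairpin did not follow miR-125a-5p. The hairpin, from RefSeq at chr17:17830812-17830879 (GRCm38.p6, plus strand), is shown because both of its arms were measured, and capitals mark the 5p arm and then the 3p arm.
Mir125a hairpin: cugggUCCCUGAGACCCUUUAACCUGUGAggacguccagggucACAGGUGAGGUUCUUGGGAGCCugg

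miR-125a-3p gave 21.5, 14.6 and 22.8 scanner units on the 3 day 3 arrays and 14.0, 9.45 and 13.0 on the day 30 arrays. It gave 12.8, 1.5 and 8.75 at day 7 and was not detected on either day 0 array. The log2 ratio of the 5p to the 3p signal was -0.12, -0.55 and -0.24 at day 3. It was 1.30, 3.93 and 1.91 at day 7 and 3.62, 3.78 and 3.57 at day 30. At day 0 it was 4.61 and 3.80 with the array's lowest detected signal of any miRNA in place of the undetected 3p arm. A detection limit of the 3p arm itself was not used, so these are nominal lower bounds. The 3 day 3 ratios were below all others, and day 3 and day 30 arrays overlapped in brightness. This ratio was singled out after its values had been seen and was not tested. In limma miR-125a-3p itself was called in 1 comparison, day 30 against day 7, at -2.0 (adjusted p 0.0122), and in none with the brightness covariate (-1.90, adjusted p 0.332).

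**Figure D5:**
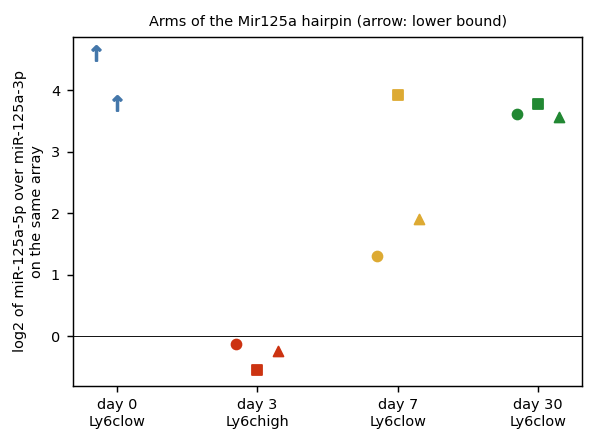
Log2 ratio of the miR-125a-5p to the miR-125a-3p signal on the same array (vertical axis) by day (horizontal axis), with 1 symbol per array. Arrows are nominal lower bounds where the 3p arm was not detected and the array's lowest detected signal took its place. The ratio lies between -0.55 and -0.12 at day 3 and between 3.57 and 3.78 at day 30.

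Likeness of pattern was measured as the root mean square difference in log2 over the 10 samples, each miRNA centred on its mean. The nearest 3 were taken among the miRNAs detected on all arrays, which leaves out miR-100-5p as a neighbour. The nearest to miR-99b-5p were miR-125b-5p (0.503), miR-125a-5p (0.547) and miR-99a-5p (0.711), beside a median of 1.81 over all miRNAs compared. miR-125a-5p was nearest to miR-99b-5p (0.547), miR-125b-5p (0.615) and let-7e-5p (0.749). miR-125b-5p was nearest to miR-99b-5p (0.503), let-7e-5p (0.527) and miR-99a-5p (0.568). For miR-99a-5p the nearest were let-7e-5p (0.476), miR-30a-5p (0.560) and miR-125b-5p (0.568). For miR-100-5p, itself undetected on 1 array, they were miR-99a-5p (0.552), miR-125b-5p (0.642) and miR-331-3p (0.677). These are descriptions over the same samples, which share brightness and scale.

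The sorted cells were checked against marker miRNAs. The summed scaled signal of 6 myeloid and pan-leukocyte markers lay within 8.13-12.7, 37.6-39.97, 11.04-13.7 and 24.5-25.9 at days 0, 3, 7 and 30, with 5 or 6 of the 6 detected on every array. These markers did not move as 1. At day 3 against day 0 miR-21a-5p changed by 3.47, miR-142a-3p by 2.82 and miR-223-3p by 1.51. miR-142a-5p, detected on no day 0 array, changed by 2.64. miR-342-3p changed by -0.08 and miR-146a-5p fell by -4.59 (limma adjusted p 0.000357), as low as miR-99b-5p. Of 6 cardiomyocyte markers, miR-208a-3p, miR-208b-3p and miR-499-5p were detected on no array. The summed signal of the list lay within 0.137-0.264, 0.0249-0.0441, 0.0917-0.131 and 0.0566-0.0798 in the same order, so it was lowest at day 3 as the members were. miR-133a-3p changed by -2.81 and miR-133b-3p by -2.75 at day 3 against day 0. For 6 fibroblast and smooth muscle markers the ranges in order of day were 0.137-0.152, 0.101-0.135, 0.198-0.470 and 0.341-0.349, and miR-145a-5p was detected on no array. None of that list was detected on both day 0 arrays. For 4 endothelial markers they were 0.0919-0.493, 0.319-0.419, 0.319-0.361 and 0.256-0.275. For 2 lymphocyte markers they were 0.176-0.286, 0.0923-0.138, 0.155-0.213 and 0.103-0.123, and for 3 erythroid markers 0.0274-0.076, 0.0334-0.0616, 0.0167-0.0326 and 0.0842-0.109. All these sums include signals without detection. On the day 0 arrays no erythroid marker was detected, nor were miR-126a-5p, miR-10b-5p, miR-196b-5p and miR-150-5p. The day 0 sums of these 3 lists are thus partly, and for the erythroid list wholly, signal without detection. miR-196b-5p and miR-144-3p were detected on no array. The part of the cardiomyocyte, fibroblast and lymphocyte signals in the members' changes was not tested. In RNA from a sorted population, fewer cells of a type and less RNA per cell cannot be told apart.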

How the data were processed

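Images were read with Agilent Feature Extraction, per the submitters' processing notes (version not given in the sources used). Per the file headers, each of 11 deposited scanner files holds a total gene signal, an intensity in scanner units, its error and a 0 or 1 detection flag for 1247 miRNAs and 21 control rows. The authors' deposited table of log2 values (317 miRNAs) was used only as an alternative.

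Each signal was divided by the 75th percentile of the 126 miRNAs that every array detected, taken on the same array, raised to a floor of 0.00271 (the median over arrays of the lowest detected scaled signal) and log2-transformed. Detection on 2 or more of the 11 arrays was required for testing, which left 369 miRNAs, and 852 were never detected. For day 30 replicates 2 and 3 the squared difference was 0.209 times that expected from the scanner error, against 2.74 to 43.1 for the other 9 pairs, so they were averaged. The 43.1 belonged to the pair of day 0 arrays. One model over 10 samples and 4 groups was fitted in limma 3.58.1 (R 4.3.3, 6 residual degrees of freedom). The Ly6clow mean weights its 3 groups equally. Ratios were tested in scipy 1.17.1 by exact permutation over samples. The limma fit was tested on simulated data for day 3 against day 0, and the permutation tests were not. The number of arrays limits the precision.

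The members, lists, scaling and tests were chosen with earlier results of these data known. Named miRNAs are the 5 members, the listed neighbours, opposite strands and seed sharers, and per member the 3 nearest in pattern. The changes of miR-133a-3p, miR-133b-3p and the single myeloid and pan-leukocyte markers were given after their values were seen. Coordinates and sequences come from RefSeq tables of GRCm38.p6, where 1031 of 1247 array miRNAs were matched. Alternatives were other scalings, floors and filters, the authors' table, slide and replicate blocks, a brightness covariate, array weights and left-out replicates.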

Additional observations from a re-analysis of the deposited data

How the results depend on the processing

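In 26 alternatives, no member reversed from day 3 to day 30 or at day 3 against the Ly6clow mean. Changes against day 0 depended on the scaling, and the cause was not tested. Without scaling, the members called numbered 0 from day 0 to day 3, 5 higher from day 0 to day 30 (74.8% of all tested called higher), 0 from day 3 to day 7, 5 higher for day 30 over day 7 (63.4%) and 2 lower for day 3 over the Ly6clow mean (6.5%). Reversed changes there were 0.41 for miR-99a-5p, 1.33 for miR-100-5p and 0.20 for miR-125b-5p from day 0 to day 3. At day 7 against day 0 they were 0.13, 0.69 and 0.28 for the same miRNAs. For miR-99b-5p, miR-125a-5p and miR-125b-5p they were 2.88, 2.38 and 3.35 from day 0 to day 30, and 3.17, 2.44 and 3.07 from day 7 to day 30. At day 7 against day 3 miR-99a-5p gave -0.28 and miR-100-5p -0.64.

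With the 75th percentile over all miRNAs, 1 member was called lower from day 0 to day 3 (1.08% of all tested), 2 higher from day 0 to day 30 (52.8%) and 1 higher from day 3 to day 7 (3.52%). Reversed were miR-100-5p from day 0 to day 3 (0.56), miR-99a-5p (0.30), miR-100-5p (1.05), miR-125a-5p (0.11) and miR-125b-5p (0.45) from day 0 to day 7, and miR-99b-5p, miR-125a-5p and miR-125b-5p from day 0 to day 30 (1.5, 1.0 and 1.97) and from day 7 to day 30 (1.61, 0.89 and 1.52). With the dmr controls as scale, 2 were called lower from day 0 to day 3 (0.813%), 5 higher from day 0 to day 30 (73.7%), 1 higher from day 3 to day 7 (1.63%) and 5 higher from day 7 to day 30 (61.2%). Reversed were miR-100-5p from day 0 to day 3 (1.09), miR-99a-5p (0.15), miR-100-5p (0.99) and miR-125b-5p (0.30) from day 0 to day 7, miR-99b-5p, miR-125a-5p and miR-125b-5p from day 0 to day 30 (2.48, 1.98 and 2.95) and from day 7 to day 30 (2.74, 2.01 and 2.64), and miR-100-5p from day 3 to day 7 (-0.10).

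Shares of all tested miRNAs called in the same direction follow the counts in parentheses. Counts with 1 replicate left out carry no share, since some of those fits held 1 sample in a group. At day 7 against day 0 the count called lower was 4 with cyclic loess (16.8%), 2 with the highest floor (1.36%), 2 with no filter (78.8%), 2 with the brightness covariate (5.96%), 1 with the slide block (1.36%) and 0 to 1 with 1 replicate left out. At day 30 against day 0 the count called lower was 0 with median scaling (35%), 1 with the authors' table (27.4%), 0 with the brightness covariate (0%), 1 with array weights (34.7%) and 3 with the slide block (52.3%). With 1 replicate left out, 0 to 2 were called, 1 of them higher without day 0 replicate 1. At day 30 against day 3 the count called higher was 3 with the highest floor (6.23%) and 3 to 5 with 1 replicate left out. At day 30 against day 7 the count called higher was 0 with no filter (3.05%) and 0 with the brightness covariate (3.25%). With array weights 3 members were called, 2 higher (27.4%) and 1 lower (54.7%), and 0 to 1 with 1 replicate left out.

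With median scaling, miR-100-5p gave 0.32 from day 0 to day 7, and from day 7 to day 30 miR-99b-5p gave 0.28 and miR-125b-5p 0.19. With cyclic loess, miR-99a-5p gave -0.24 from day 0 to day 30, and from day 7 to day 30 miR-99b-5p gave 0.20 and miR-125b-5p 0.062. With the brightness covariate, miR-99a-5p (-0.55), miR-100-5p (-2.05) and miR-125a-5p (0.21) reversed from day 0 to day 30, and miR-100-5p (-1.18) and miR-125a-5p (0.85) from day 7 to day 30. miR-99b-5p from day 7 to day 30 gave 0.61 with quantile normalization, 0.65 with the authors' table, 0.050 with the slide block and -0.20 to 0.16 with 1 replicate left out. With 1 replicate left out, miR-100-5p ranged from -0.93 to 0.55 for the change from day 0 to day 7 and -0.24 to 1.24 for that to day 30, and miR-99a-5p from -0.047 to 0.50 for that to day 30.

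Ratios at day 3 against Ly6clow reversed for miR-99b-5p over miR-125a-5p with quantile normalization (0.23) and the authors' table (0.030), and for miR-99a-5p over miR-125b-5p with cyclic loess (0.0020) and over a range of -0.37 to 0.20 with 1 replicate left out. With the highest floor, which lifts the dim members, miR-99b-5p over miR-99a-5p was 1.49, miR-125a-5p over miR-125b-5p 0.27, miR-99b-5p over miR-125a-5p 1.14 and miR-100-5p over miR-125b-5p 1.99.

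Deviations from group means correlated at -0.11 to 0.63 (median 0.44) between samples with the same replicate number. Between samples with different numbers they correlated at -0.69 to 0.63 (median -0.36). Samples of like number thus tended to deviate alike, but in every group replicate 1 was on slide 1 and replicate 2 on slide 2. Number and slide therefore cannot be told apart for these replicates. In a group of 2 samples the deviations mirror each other, which fixes part of the signs in advance. Day 7 replicate 1, for example, correlated at 0.51 with day 0 replicate 1 and at -0.51 with day 0 replicate 2. The labels do not tie samples to animals. The main fit did not pair samples, and the replicate number was used as a block only in an alternative. With the replicate block, 5 members were called lower at day 3 against day 0 (39.3% of all tested). At day 7 against day 0 the count called lower was 0 (0.542%), and at day 30 it was 2 (50.9%). The count called higher was 5 for day 7 over day 3 (27.4%) and 5 for day 30 over day 3 (8.67%). For day 30 over day 7 it was 1 (13.6%). Relative to the Ly6clow mean, 5 were called lower at day 3 (20.6%). What signal over background limits is miR-100-5p at day 0 and miR-99b-5p at day 3.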
